A study of Mus musculus with 16 samples.

Results

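The promoters of 39 genes of DNA replication and mitosis were examined in ATAC-seq peak lists of mouse hematopoietic stem and progenitor cells (HSPCs). Of the members, 23 act before or during S phase and 16 act in the G2 phase or mitosis. They were listed by name, and each was tied to the merged accessible regions within 3 kb of its transcription start sites. They are 39 of 21853 annotated protein-coding genes, and of 14120 genes whose main promoter region had a peak in all 16 libraries. The 4 genotypes were compared, with 4 libraries each. All mice carried floxed Ep300 alleles and received poly(I:C) at 6 to 8 weeks of age, on a C57BL/6 background with both sexes used. WT mice were Ep300 fl/fl without Cre, and P300KO mice were Mx1-Cre Ep300 fl/fl. TET2KO mice were Ep300 fl/fl Tet2-/- without Cre, and P300KO_TET2KO mice were Mx1-Cre Ep300 fl/fl Tet2-/-. Mx1-Cre is switched on by interferon, which poly(I:C) induces, and is active in blood cells and in other tissues, so Cre and loss of p300 cannot be told apart here. Each library pooled cells of 2 mice of 1 genotype, 50000 viable HSPCs were used, and libraries were amplified with 11 PCR cycles. A merged peak file is named in the labels of replicates 1 and 2 of every genotype and not in those of replicates 3 and 4. The first pair is named deposit set 1 here and the second deposit set 2, and the sources used here do not state what differed between them.

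Cells copy their genome once per division by loading the MCM helicase onto origins in G1 phase and starting it in S phase, under the control of cyclin-dependent kinases. Genes for this machinery are classically switched on by E2F transcription factors, whereas genes for the spindle, centromere and mitotic kinases peak later and carry CCAAT boxes and a cell cycle homology region (CHR) in their promoters. Most long-term stem cells in bone marrow are quiescent, while the progenitors beside them cycle. p300 is a lysine acetyltransferase and transcriptional coactivator, and Tet2 oxidizes 5-methylcytosine. Promoters of such genes can be open in cells that do not divide, and ATAC-seq reads how open the DNA is to a transposase, not whether the gene is transcribed.

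Peaks had been called in every library separately, and the depth of a library is unknown from its peak list. Set 1 lists held 86039 to 110055 peaks and set 2 lists held 130610 to 137335. All 10 HSPC marker genes examined, among them Kit, Flt3 and Meis1, had a promoter peak in 16 of 16 libraries. Of 24 marker genes of other cells, 9 had a peak in every library as well, including Pax5 and Neurod1, and Alb and Ins2 had none in any library. The other 13 had one in between 1 library (Alas2) and 14 libraries (Camp). Cd79a had a promoter peak in 2 WT libraries and 1 TET2KO library and in 0 libraries of the p300-deleted genotypes. In bulk libraries, fewer cells with an open promoter and less accessibility per cell cannot be told apart.

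The reference promoters of 6 members are shown, Mcm5 and Mcm6 for their E2F and CCAAT strings, Ccnb2, Aurkb and Cdk1 for CCAAT beside CHR strings, and Plk1 as the lowest mitotic member by −log10 p, which holds CCAAT alone in the printed stretch. Each runs from 180 bases before the representative start site to 20 bases into the transcript, 5′ to 3′ on the strand of the gene, in the mm10 build. The positions are chr8:75109389-75109588 for Mcm5 (plus strand), chr1:128359645-128359844 for Mcm6 (minus), chr9:70421528-70421727 for Ccnb2 (minus), chr11:69045472-69045671 for Aurkb (plus), chr10:69352919-69353118 for Cdk1 (minus) and chr7:122159259-122159458 for Plk1 (plus). Capitals mark E2F strings (TTGGCGC and its variants TTCCCGC and also TTGCCGC and also TTCGCGC), the NF-Y string CCAAT and the CHR strings TTTGAA and also TTCGAA, on either strand. On the opposite strand CCAAT is seen as ATTGG, the CHR string TTTGAA as TTCAAA and the E2F string TTCGCGC as GCGCGAA.
Mcm5: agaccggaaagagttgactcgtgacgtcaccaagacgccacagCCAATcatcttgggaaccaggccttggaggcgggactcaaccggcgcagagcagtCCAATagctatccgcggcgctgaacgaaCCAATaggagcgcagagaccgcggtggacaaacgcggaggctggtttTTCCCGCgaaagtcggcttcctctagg
Mcm6: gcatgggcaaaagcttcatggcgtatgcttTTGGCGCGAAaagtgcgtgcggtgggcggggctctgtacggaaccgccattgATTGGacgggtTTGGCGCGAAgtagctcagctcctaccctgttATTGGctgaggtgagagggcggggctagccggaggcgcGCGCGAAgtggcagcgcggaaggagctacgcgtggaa
Ccnb2: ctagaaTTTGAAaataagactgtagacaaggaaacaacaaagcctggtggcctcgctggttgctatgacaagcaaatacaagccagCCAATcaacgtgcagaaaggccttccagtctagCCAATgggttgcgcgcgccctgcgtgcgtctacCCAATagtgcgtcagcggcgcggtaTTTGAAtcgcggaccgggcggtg
Aurkb: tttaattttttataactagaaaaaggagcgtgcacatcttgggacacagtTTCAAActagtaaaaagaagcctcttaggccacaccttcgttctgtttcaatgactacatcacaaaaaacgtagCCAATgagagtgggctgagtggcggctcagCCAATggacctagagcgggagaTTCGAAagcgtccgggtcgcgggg
Cdk1: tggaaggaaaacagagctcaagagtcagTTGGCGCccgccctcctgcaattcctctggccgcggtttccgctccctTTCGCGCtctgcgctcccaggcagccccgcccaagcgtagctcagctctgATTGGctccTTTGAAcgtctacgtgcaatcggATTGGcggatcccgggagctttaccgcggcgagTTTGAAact
Plk1: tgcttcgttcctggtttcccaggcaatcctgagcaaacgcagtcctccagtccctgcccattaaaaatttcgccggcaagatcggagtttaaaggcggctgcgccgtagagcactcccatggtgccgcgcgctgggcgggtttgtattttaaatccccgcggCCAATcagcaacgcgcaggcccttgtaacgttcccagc

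Strings were counted over 250 bases before to 50 after the start. An E2F string was present in 13 of 23 S-phase members (56.5%) and 3 of 16 mitotic members (18.75%). It was present in 12.1% of all protein-coding genes and 16.6% of all genes tested. The CHR strings showed the opposite order, with 1 of 23 S-phase members (4.35%) and 10 of 16 mitotic members (62.5%). The shares were 17.2% of all protein-coding genes and 13.4% of all genes tested. The 1 S-phase member was Mcm2, and all 10 mitotic members with a CHR string also held CCAAT, a combination found in 7.58% of all genes. CCAAT was common in both classes, in 15 of 23 (65.2%) and 15 of 16 (93.75%), against 38.6% of all. Among other genes of the same pathways, 47.7% of 44 replication genes held an E2F string and 11.4% a CHR string. The 53 other mitosis genes gave 24.5% and 54.7%. The printed promoters hold examples of each kind. Mcm6 held 5 E2F matches, of which 4 lie in 2 overlapping pairs, beside 2 CCAAT boxes. Ccnb2, the cyclin B2 gene, had CCAAT at −94, −61 and −28, each 33 bases from the next, and TTTGAA at −3. Aurkb, a kinase of the chromosomal passenger complex, had CCAAT at −56 and −26 and TTCGAA at −4. Cdk1, the kinase that drives entry into mitosis, held all 3 kinds of string. Top2a, which untangles sister chromatids, had 6 CCAAT and 4 CHR matches. Tyms, Pcna, Rfc5, Mcm7, Ccne1 and Ccna2 held none of these letters in this window. A match describes sequence only, and TTGGCGC overlapped CCAAT in Ccnb1. In windows from a RefSeq promoter table, matched for 31 members, E2F strings were in 11 of 19 S-phase and 3 of 12 mitotic members, and CHR strings in 2 of 19 and 10 of 12, against 12.6% and 17.1% of all genes matched.

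**Figure D1:**
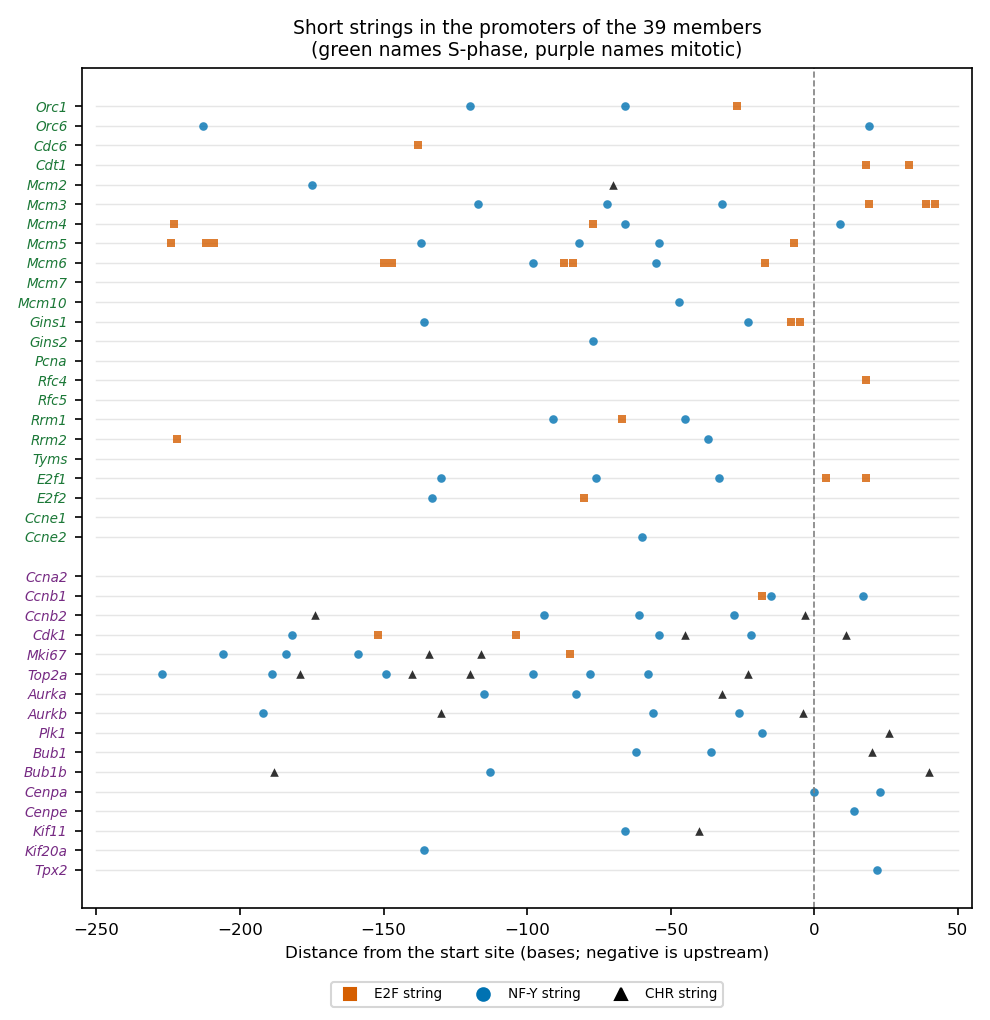
Positions of E2F (squares), NF-Y (circles) and CHR (triangles) strings in bases from the start site (dashed line) for each of the 39 members. CHR strings lie in 10 of 16 mitotic members and 1 of 23 S-phase members.

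Every one of the 39 members had a peak in its main promoter region in all 16 libraries, as did 77.5% of all genes with a promoter region. Presence therefore did not separate genotypes at these promoters, whatever the class. The regions were 796 to 2148 bp wide, with a median of 1247 bp against 1222 bp over all genes tested. In 38 of 39 the region covered a start site of the member itself. The exception was Mcm2, a helicase subunit, whose highest-ranked region (chr6:88901721-88902849) held the start of Tpra1, while the region over its own start (chr6:88898338-88898986) also had a peak in 16 libraries. In 7 members the region held the start of another protein-coding gene: Orc1 with Prpf38a, Orc6 with Vps35, Mcm2 with Tpra1, Mcm4 with Prkdc, Mcm7 with Ap4m1, Aurka with Cstf1 and Kif20a with Brd8. Peak values there cannot be assigned to either gene alone. Taken as its median position over 16 libraries, the strongest summit lay within 250 bp of the start in all 16 mitotic members. The median of these positions was −45 bp. The same held for 19 of 23 S-phase members. In single libraries it could lie further away, at up to 289 bp in Kif20a.

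The members ranked high among promoters. Each main promoter peak was given a percentile by its −log10 p among the 12570 main promoter regions of the same library, where 100 is the strongest, since −log10 p itself depends on depth. The mean over 16 libraries exceeded 50 for 35 of 39 members (89.7%), against 53.3% of all genes tested. The median was 75.9 for S-phase members and 65.3 for mitotic members, against 53.0 for all. Among all peaks of a list, promoters or not, the medians were 97.1, 95.6 and 93.5.

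Among S-phase members, 4 genes had the highest medians by −log10 p. Gins2, a subunit of the GINS complex that activates the helicase, was highest, between 97.0 and 99.97 (median 99.3). Mcm4, a helicase subunit, lay between 91.0 and 99.7 (median 98.1). Pcna, the sliding clamp, lay between 89.7 and 99.0, and Cdc6, a loader of the helicase, between 85.9 and 98.7. These 4 stayed above 85 in every library. The other helicase subunits were lower, with medians of 87.1 for Mcm6, 80.5 for Mcm3, 76.7 for Mcm5, 73.8 for Mcm2 and 66.1 for Mcm7. Orc6 and Orc1, of the origin recognition complex, had medians of 83.3 and 81.9, and Cdt1, a licensing factor, 77.4. Clamp loader genes Rfc5 and Rfc4 gave 68.3 and 62.1. Gins1 and Mcm10, both needed to start the helicase, gave 74.2 and 75.7. E2f1 (87.5) and Ccne1 (81.8), which encode an activator E2F and cyclin E1, stood well above Ccne2 (57.0). By −log10 p, E2f2 and Tyms lay far below the rest of the class. E2f2, another activator E2F, was lowest, between 8.69 and 31.2 (median 16.5), and Tyms, thymidylate synthase, lay between 4.79 and 28.7 (median 22.4). No value of either reached the lowest value of any other S-phase member, 52.4 in Ccne2. The ribonucleotide reductase genes Rrm1 and Rrm2, which like Tyms supply nucleotides, had medians of 76.1 and 68.8. By fold enrichment the mean percentiles of Gins2 (74.5) and Mcm4 (77.3) lay below those of Mcm10 (96.6), Cdc6 (94.8) and Rrm1 (94.0).

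Among mitotic members, Ccna2, the cyclin A2 gene, was highest by −log10 p, between 87.7 and 99.5 (median 96.1). Its product also acts in S phase. Among spindle genes the medians were 89.2 for Kif11 and 83.9 for Kif20a, both kinesins, and 81.7 for Tpx2, a spindle assembly factor. Cenpa, the centromeric histone, gave 85.3 and Cenpe, a centromere motor, 59.6. The mitotic kinase genes covered the widest range, with 84.0 for Aurka, 42.3 for Aurkb and 36.7 for Plk1. By −log10 p Plk1 was the lowest mitotic member, between 29.3 and 42.4, and the spread of Aurkb (33.8 to 66.1) overlapped it. Checkpoint genes Bub1 and Bub1b gave 61.8 and 51.3. The cyclin B genes were close to one another, with 60.3 for Ccnb1 and 58.8 for Ccnb2, and Cdk1 was higher at 72.9. Top2a and Mki67, a coat of mitotic chromosomes, gave 66.6 and 62.3. Neighbours in this order overlapped across libraries, so only wide gaps, such as that between Ccna2 and Plk1, exceeded the spread.

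**Figure D2:**
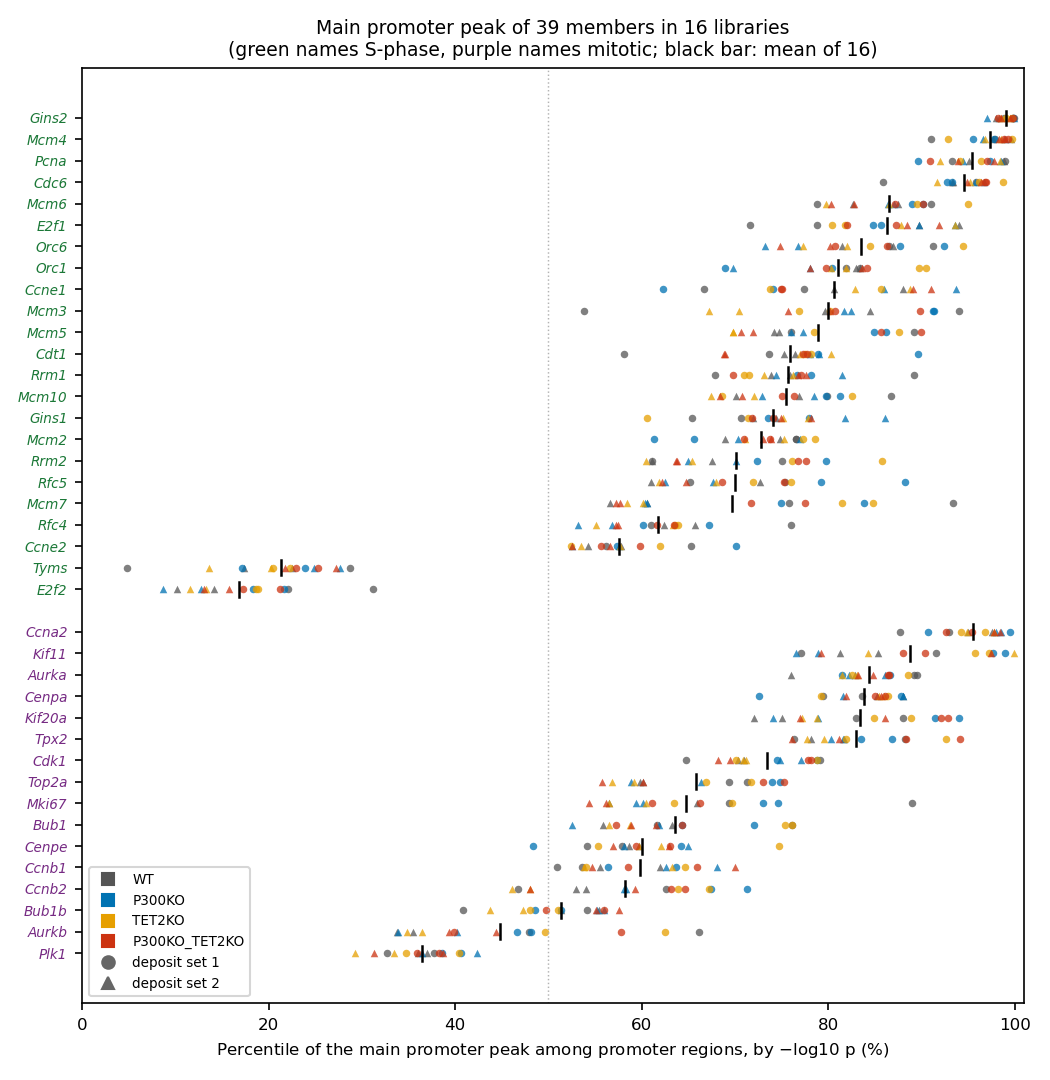
Percentile of the main promoter peak among promoter regions by −log10 p (horizontal axis, %) for each member, with 1 point per library, colour for genotype, circles for deposit set 1, triangles for deposit set 2 and a bar at the mean of 16. E2f2 and Tyms reach at most 31.2, and Gins2 lies at 97.0 or above.

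Whether S-phase promoters ranked above mitotic ones depended on which of the deposited measures ordered the peaks. By −log10 p the S-phase median was above the mitotic median in 16 of 16 libraries. The gap was 9.69 percentile points among promoter regions (SD 3.49, n = 16), from 2.33 in WT replicate 1 to 14.9 in WT replicate 3. By the authors' fold enrichment the order turned around in 15 of 16 libraries, with an S-phase median of 67.4 and a mitotic median of 77.6 and a mean gap of −10.2 (n = 16). WT replicate 1 was the exception, at 77.1 against 71.5. Its member peaks were also the lowest in fold, with a median of 8.09 for the S-phase class against 12.2 to 19.9 in the other libraries. The peaks of both classes had nearly the same median width, 959 and 965 bp. Their median fold was 17.3 for the S-phase and 18.9 for the mitotic class, while their median −log10 p was 512 and 411. Single genes show the split. Pcna had a mean percentile of 95.4 by −log10 p and 62.8 by fold, and Mcm7 had 69.7 and 29.3. Ccnb2 had 58.2 and 91.3, and Bub1b had 51.3 and 85.8. Cdc6 was high by both (94.6 and 94.8), and E2f2 was low by both (16.8 and 12.2). Tyms, at 21.3 by −log10 p, was at 48.4 by fold, above Mcm7, Mcm2, Ccne2 and Rrm2. No test was made of the classes, since genes are not replicates.

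The gap by −log10 p was compared between genotypes. WT had 9.37 ± 5.23 points, P300KO had 9.71 ± 3.40, TET2KO had 10.2 ± 3.61 and P300KO_TET2KO had 9.49 ± 2.89 (SD, n = 4 each), so the genotype means lay within 1 SD of one another. It differed by deposit set, at 6.81 ± 2.02 in set 1 and 12.6 ± 1.74 in set 2 (SD, n = 8 each). The highest of set 1 was 9.43 and the lowest of set 2 was 10.1. The mitotic median was 71.9 ± 1.89 in set 1 and 63.2 ± 2.11 in set 2, against 78.7 ± 1.72 and 75.8 ± 1.68 for the S-phase class. By fold, the S-phase median was 71.9 ± 4.55 in set 1 and 62.9 ± 2.12 in set 2, against 78.5 ± 3.34 and 76.6 ± 3.12 for the mitotic class. WT had a gap by fold of −8.80 ± 10.4 and P300KO one of −7.41 ± 6.14, while TET2KO had −11.6 ± 4.82 and P300KO_TET2KO −12.8 ± 3.16 (SD, n = 4 each). In set 1 it was −16.2 and −12.1 in P300KO_TET2KO, below the range of −8.96 to 5.67 in the other genotypes. In set 2, at −14.1 and −8.79, it lay within their range of −17.99 to −7.96. Ranked by fold among all peaks, the S-phase median of P300KO_TET2KO was the lowest in both sets, at 93.2 and 92.7 against 95.2 to 96.7 in set 1 and at 89.4 and 90.3 against 91.4 to 93.9 in set 2. The median over all genes tested was lowest in the same libraries, at 89.6 and 88.3 against 90.6 to 92.4 in set 1 and at 85.6 and 86.8 against 88.6 to 90.4 in set 2. The longer lists of set 2 coincided with the differences between deposit sets, and their part in them was not tested.

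**Figure D3:**
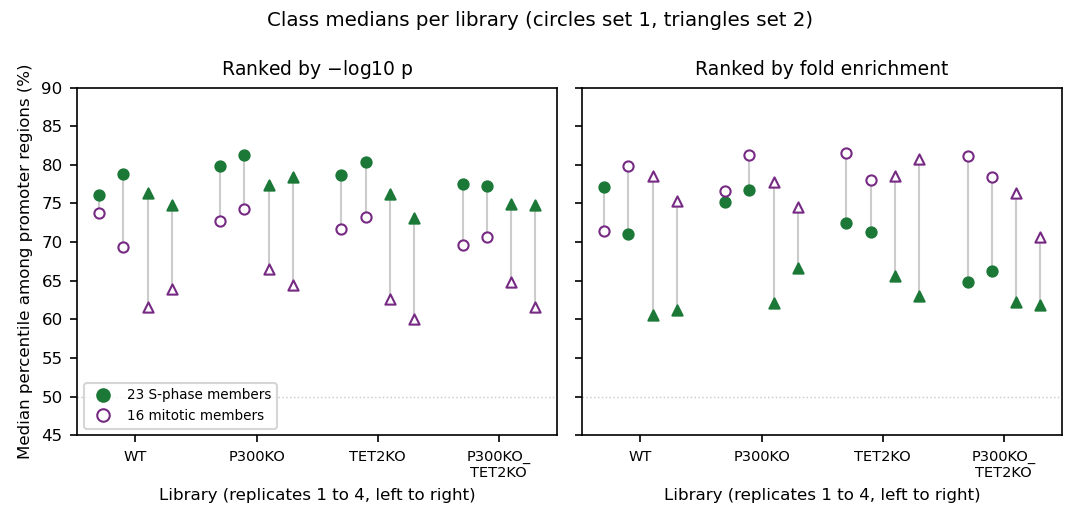
Median percentile among promoter regions (vertical axis, %) of the 23 S-phase members (filled) and 16 mitotic members (open) in each library, ranked by −log10 p on the left and by fold enrichment on the right, with circles for deposit set 1 and triangles for set 2. Filled points lie above open points in 16 libraries on the left and in 1 on the right.

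The comparison of P300KO_TET2KO with TET2KO asks what loss of p300 adds in cells without Tet2. No member of either class passed the test. Percentiles were converted to normal scores, on which 0 is the median promoter region and 1 unit is 1 SD, and were fitted with limma with deposit set as a term. At a Benjamini-Hochberg adjusted p under 0.05, 0 of 39 members passed, where 0.0354% of all genes tested were called (5 of 14120, with 0.0212% higher and 0.0142% lower). At an unadjusted p under 0.05 there was 1 member, where the share of all genes was 5.86%. Exact permutation within deposit sets allows 36 regroupings and cannot give a p below 0.0556. That smallest value was reached by 3 members, where 11.2% of all genes reached it. The median difference was −0.01 for S-phase and 0.05 for mitotic members, and −0.0024 for all genes. Differences were positive in 10 of 23 and 11 of 16, against 49.3% of all genes. Leaving out 1 library gave medians of −0.039 to 0.024 for S-phase and 0.018 to 0.067 for mitotic members. Ranked by fold, the medians were −0.19 for S-phase members (5 of 23 positive), −0.11 for mitotic members (6 of 16 positive) and −0.065 for all genes, of which 59.3% were negative. The median standard error of a member was 0.12, and true shifts several times that size can miss the threshold.

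The member with the smallest p was Kif20a, at 92.8, 92.1, 86.0 and 77.0 in replicates 1 to 4 of P300KO_TET2KO and 84.9, 88.9, 77.2 and 78.8 in TET2KO. The groups overlapped, and the difference in score was 0.23 ± 0.11 (SE, n = 4 against 4, limma adjusted p = 0.845). By fold the same difference was −0.10. Bub1b, a component of the spindle checkpoint, was at 49.7, 56.0, 57.5 and 55.1 against 51.0, 48.1, 43.7 and 47.3. Its difference was 0.18 ± 0.09 (limma adjusted p = 0.864), and 3 of the 4 P300KO_TET2KO libraries lay above all TET2KO libraries. Orc1 moved the other way, at 79.8, 84.1, 83.6 and 78.1 against 90.5, 89.7, 82.0 and 80.3, with a difference of −0.19 ± 0.11 (limma adjusted p = 0.885) and overlapping groups. Kif11, named after its values were seen, had the lowest estimate, −0.67 ± 0.40 (limma adjusted p = 0.894). Its percentiles were 90.4, 88.0, 97.4 and 79.2 against 97.2, 95.8, 99.9 and 84.3, and the groups overlapped. The cause of its wide error was not tested.

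In the remaining roles the member with the smallest p was as follows. Mcm3 stood at 89.8, 80.7, 75.7 and 80.1 in P300KO_TET2KO and 80.2, 76.8, 70.5 and 67.2 in TET2KO. In either deposit set the P300KO_TET2KO pair exceeded the TET2KO pair, and the score difference was 0.28 ± 0.21 (limma adjusted p = 0.935). Tyms was at 22.99, 25.3, 27.2 and 21.8 against 20.5, 22.3, 20.2 and 13.6, ordered the same way, with a difference of 0.18 ± 0.17 (limma adjusted p = 0.961). Mcm7, the other member at the smallest exact permutation p, was lower in P300KO_TET2KO within both sets, at 71.7, 77.5, 57.3 and 57.7 against 81.5, 84.8, 60.1 and 58.5 (−0.17 ± 0.14, limma adjusted p = 0.939). For Gins1 the values were 71.8, 74.1, 74.9 and 78.2 against 71.4, 60.6, 77.8 and 75.2, and the groups overlapped (0.10 ± 0.09). Overlap was also the rule for Ccnb1, with 58.6, 65.9, 70.0 and 54.6 against 54.1, 64.7, 63.2 and 53.8 (0.09 ± 0.11). Top2a gave 73.0, 75.3, 55.8 and 60.2 against 66.9, 71.7, 56.8 and 59.1 (0.07 ± 0.08). E2f2 gave 21.2, 17.2, 15.8 and 13.1 against 18.7, 18.8, 11.6 and 13.3 (0.05 ± 0.10), and Plk1 gave 35.96, 38.2, 38.7 and 31.3 against 40.4, 34.7, 33.5 and 29.3 (0.04 ± 0.08). Rfc4 was at 61.7, 63.5, 57.2 and 57.5 against 63.6, 63.9, 63.4 and 55.1 (−0.04 ± 0.10). For these 6 the limma adjusted p lay between 0.955 and 0.987. In Top2a and E2f2 the libraries of set 1, replicates 1 and 2, were above those of set 2 in both genotypes.

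**Figure D4:**
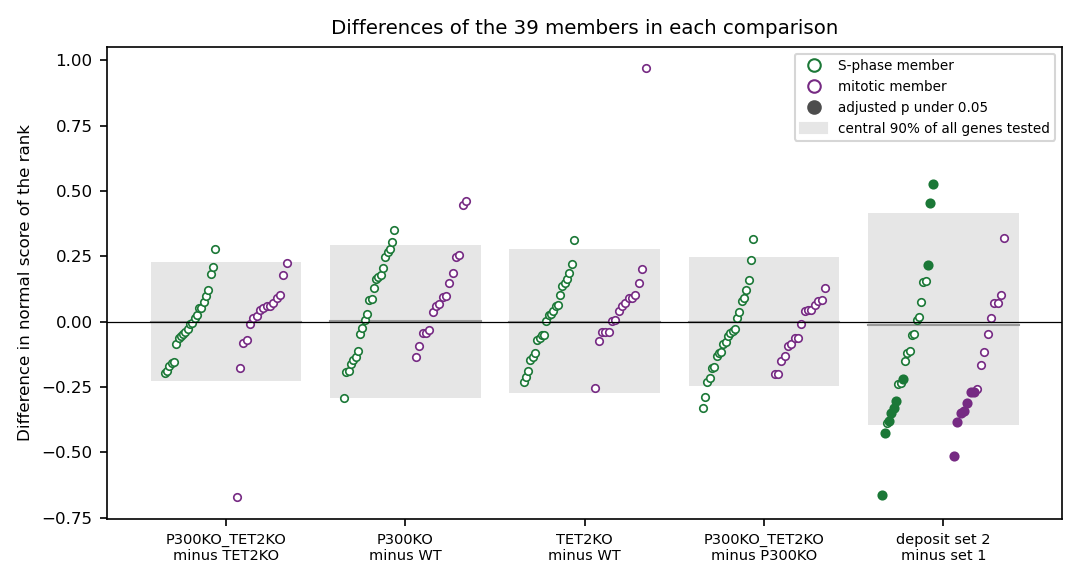
Difference in normal score of the rank (vertical axis) for each member in the 4 genotype comparisons and between deposit sets, with S-phase members in green, mitotic members in purple, filled points at an adjusted p under 0.05, and grey bands for the central 90% of all genes tested with a line at their median. Filled points appear for the deposit sets alone, where there are 17.

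With Tet2 present, the comparison of P300KO with WT called 0 of 39 members, and 0% of all genes. At an unadjusted p under 0.05 there were 6 members, where 12.3% of all genes were under it, and 5 reached the smallest exact permutation p, where 9.16% of all genes did. Differences were positive in 25 of 39, with a median of 0.08 in both classes, against 50.1% positive and a median of 0.00030 over all genes. Leaving out 1 library gave medians of 0.012 to 0.13 for S-phase and 0.052 to 0.11 for mitotic members. By fold the medians were 0.024 for S-phase and 0.060 for mitotic members and −0.014 for all genes. The members named here and in the next 2 comparisons were chosen for their p after the values were seen. Gins1 had the smallest p, at 77.9, 73.5, 86.1 and 81.8 in P300KO and 65.4, 70.6, 74.4 and 71.96 in WT. Within each set both P300KO libraries were higher, and the difference was 0.30 ± 0.09 (limma adjusted p = 0.264). Cdt1 was at 78.9, 89.6, 78.1 and 79.1 against 58.1, 73.7, 76.4 and 75.2, with no overlap (0.35 ± 0.13, limma adjusted p = 0.305). Ccnb2 was at 71.3, 67.4, 58.3 and 58.1 against 46.8, 62.6, 52.9 and 54.0 and was higher within each set (0.25 ± 0.11, limma adjusted p = 0.355). Orc1 was lower, at 80.4, 68.9, 78.1 and 69.8 against 81.9, 83.4, 82.9 and 83.4, with no overlap (−0.29 ± 0.11, limma adjusted p = 0.318). Ccna2 (0.46 ± 0.20) and Kif20a (0.25 ± 0.11) had overlapping groups, with limma adjusted p of 0.362 and 0.363.

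For TET2KO against WT, 0 of 39 members and 0% of all genes were called, and 1 member was at an unadjusted p under 0.05, where 9.81% of all genes were. The smallest exact permutation p was reached by 1, where 7.34% of all genes reached it. The lowest limma p was that of Kif11, at 97.2, 95.8, 99.9 and 84.3 in TET2KO and 77.1, 91.5, 85.3 and 81.3 in WT, with 1 TET2KO library inside the range of WT (0.97 ± 0.40, limma adjusted p = 0.462). For P300KO_TET2KO against P300KO, 0 of 39 were called, where the share of all genes was 0.00708%. At an unadjusted p under 0.05 there were 2 members, where 7.86% of all genes were under it, and 4 reached the smallest exact permutation p, where 10.6% did. Cdt1 was lower in P300KO_TET2KO, at 77.7, 77.3, 68.8 and 68.96, than in P300KO (values above), with no overlap and a difference of −0.29 ± 0.13 (limma adjusted p = 0.612). Orc1 was higher, at 79.8, 84.1, 83.6 and 78.1 against 80.4, 68.9, 78.1 and 69.8, with overlapping groups (0.24 ± 0.11, limma adjusted p = 0.629). These comparisons share libraries with those above and are not independent of them.

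Whether p300 loss acted differently with and without Tet2 was tested by the interaction term, and 0 of 39 members and 0% of all genes passed. At an unadjusted p under 0.05 there was 1 member, where 5.72% of all genes were under it. Cdt1 had the lowest member p, with an interaction of −0.51 ± 0.18 (limma adjusted p = 0.857). Averaged over both Tet2 backgrounds, a contrast added after the data were seen, p300 loss called 0 of 39 members, where 0.135% of all genes were called (0.0708% higher and 0.0637% lower). At an unadjusted limma p under 0.05 there were 3 members, where 12.2% of all genes were. Kif20a was higher by 0.24 ± 0.07, Gins1 was higher by 0.20 ± 0.06 and Orc1 was lower, at −0.24 ± 0.08, with limma adjusted p of 0.219, 0.222 and 0.231. By the exact permutation test over 1296 regroupings each had an unadjusted p of 0.00926, and 0 members reached the smallest p of 0.00154, where 1.07% of all genes did. Ranked by fold, Orc1 passed (−0.42, limma adjusted p = 0.0406), where 0.715% of all genes did. The average effect of Tet2 loss called 0 of 39, where the share of all genes was 0.113% (0.0567% in each direction). An unadjusted limma p under 0.05 was found for 3 members, where 11.6% of all genes had one, and 0 reached the smallest exact permutation p, where 0.949% did. Its lowest member p were those of Mki67 (−0.23 ± 0.09), Mcm10 (−0.18 ± 0.07) and Orc1 (0.18 ± 0.08), with limma adjusted p between 0.353 and 0.373. Without WT replicate 1, Mcm3 passed in this contrast (−0.39, limma adjusted p = 0.0444), where 0.198% of all genes did. Its percentile in that library was 53.8, against 79.7 to 94.0 in the other WT libraries.

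Between set 2 and set 1, 17 of 39 members differed at an adjusted p under 0.05, where 33.4% of all genes did. Of the 17, 3 were higher in set 2, where the share of all genes in that direction was 15.4%, and 14 were lower, where it was 18%. The calls fell on 10 of 23 S-phase and 7 of 16 mitotic members, and all 7 mitotic ones were lower. The 8 libraries of each set did not overlap for 4 members, where this held for 6.1% of all genes. The 4 were Mcm7, E2f1, E2f2 and Top2a. The sets lay apart within every genotype in 8 members, which reached the smallest exact permutation p, as did 12.6% of all genes. An unadjusted p under 0.05 was found for 21 members, against 44.4% of all genes. The direction depended on the scale. Scored among all peaks of the list, 10 members were called higher and 2 lower, where 50.9% of all genes were called (6778 higher and 404 lower) and their median was 0.14. On that scale 12 of the 17 calls were lost, and Mcm7, Kif20a, E2f1, Ccne1 and Gins1 were still called, in the same direction. Ranked by fold among promoters, 5 were called higher and 18 lower, where 56.1% of all genes were called (3024 higher and 4901 lower).

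Among S-phase members, Mcm7 differed most, from 71.7 to 93.4 in set 1 (median 79.5) and from 56.6 to 60.6 in set 2 (median 59.3). The difference in score was −0.66 ± 0.10 (SE, limma adjusted p = 0.000199). Mcm5 spanned 75.99 to 90.004 (median 85.9) in set 1 and 69.8 to 77.3 (median 73.1) in set 2, and was lower in set 2 within every genotype (−0.43 ± 0.08). E2f1 and E2f2, related activators, went opposite ways. E2f1 spanned 71.6 to 87.3 (median 81.9) in set 1 and 87.8 to 94.1 (median 90.8) in set 2, a rise of 0.45 ± 0.08. E2f2 spanned 17.2 to 31.2 (median 20.02) in set 1 and 8.69 to 15.8 (median 12.9) in set 2, a difference of −0.35 ± 0.07. Ccne1 was higher in set 2 and spanned 62.3 to 85.6 (median 74.5) in set 1 and 80.6 to 93.7 (median 88.4) in set 2 (0.53 ± 0.10). Gins1 was higher as well and spanned 60.6 to 77.9 (median 71.6) in set 1 and 71.96 to 86.1 (median 76.5) in set 2 (0.22 ± 0.06), and both had sets that overlapped. By fold, Ccne1, E2f1 and Gins1 were no longer called, nor were Rfc5 and Mcm10, and Gins1 was at −0.16. The other 4 calls were lower in set 2, with sets that overlapped. Orc6 spanned 80.7 to 94.4 (median 87.1) in set 1 and 73.3 to 86.99 (median 78.8) in set 2. For Rrm2 the values were 61.1 to 85.8 (median 76.4) in set 1 and 60.5 to 70.2 (median 64.4) in set 2. Those of Rfc5 were 65.2 to 88.3 (median 75.3) in set 1 and 60.97 to 72.7 (median 63.7) in set 2, and those of Mcm10 were 68.7 to 86.8 (median 79.8) in set 1 and 67.4 to 78.5 (median 71.4) in set 2. Their differences lay between −0.38 and −0.22, with limma adjusted p between 0.00581 and 0.0303. Scored among all peaks, Mcm5 (limma adjusted p = 0.0565), E2f2 (0.0810), Orc6, Rrm2, Rfc5 and Mcm10 were not called. Mcm10 lost its call without any 1 of 5 libraries (P300KO replicate 3, TET2KO replicates 2 and 3, P300KO_TET2KO replicate 3 or WT replicate 4), with limma adjusted p between 0.0522 and 0.0695.

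Among mitotic members, Kif20a was lower in set 2, at 83 to 94.03 (median 90.1) in set 1 and 72 to 86.04 (median 77.1) in set 2, and this held within every genotype (−0.51 ± 0.07, limma adjusted p = 0.000169). Top2a spanned 66.9 to 75.3 (median 72.4) in set 1 and 55.8 to 66.3 (median 59.5) in set 2, with no overlap (−0.34 ± 0.06). Mki67 spanned 61.1 to 89.03 (median 69.5) in set 1 and 54.4 to 65.95 (median 57.96) in set 2 (−0.35 ± 0.09). Aurkb spanned 39.9 to 66.1 (median 48.9) in set 1 and 33.8 to 44.4 (median 35.9) in set 2 (−0.38 ± 0.09), and for both genes the sets overlapped. Overlap was found too for Tpx2, at 76.3 to 94.2 (median 87.5) in set 1 and 76.2 to 81.7 (median 79.9) in set 2. Bub1 was at 57.3 to 76.2 (median 68.2) in set 1 and 52.5 to 63.3 (median 58.8) in set 2. Ccnb2 was at 46.8 to 71.3 (median 64.3) in set 1 and 46.1 to 59.2 (median 53.4) in set 2. These 3 had limma adjusted p between 0.0131 and 0.0233. Tpx2 was no longer called without TET2KO replicate 1 or either of P300KO_TET2KO replicates 1 and 3, with limma adjusted p between 0.0510 and 0.0543. By fold, Ccnb2 had the opposite sign, at 0.36, and Ccnb2, Bub1 and Tpx2 were not called. Scored among all peaks, Kif20a was the 1 mitotic member of the 7 that was still called, and Top2a (limma adjusted p = 0.140), Mki67 (0.299) and Aurkb (0.175) were among the 6 that were not. Members that did not pass included Plk1 (medians of 38.0 and 36.2), Cenpe (58.7 and 59.7) and Cdk1 (78.0 and 70.9). Set 2 lists held more peaks throughout, and the part of list length in these differences was not tested. Each set held 2 libraries of every genotype.

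**Figure D5:**
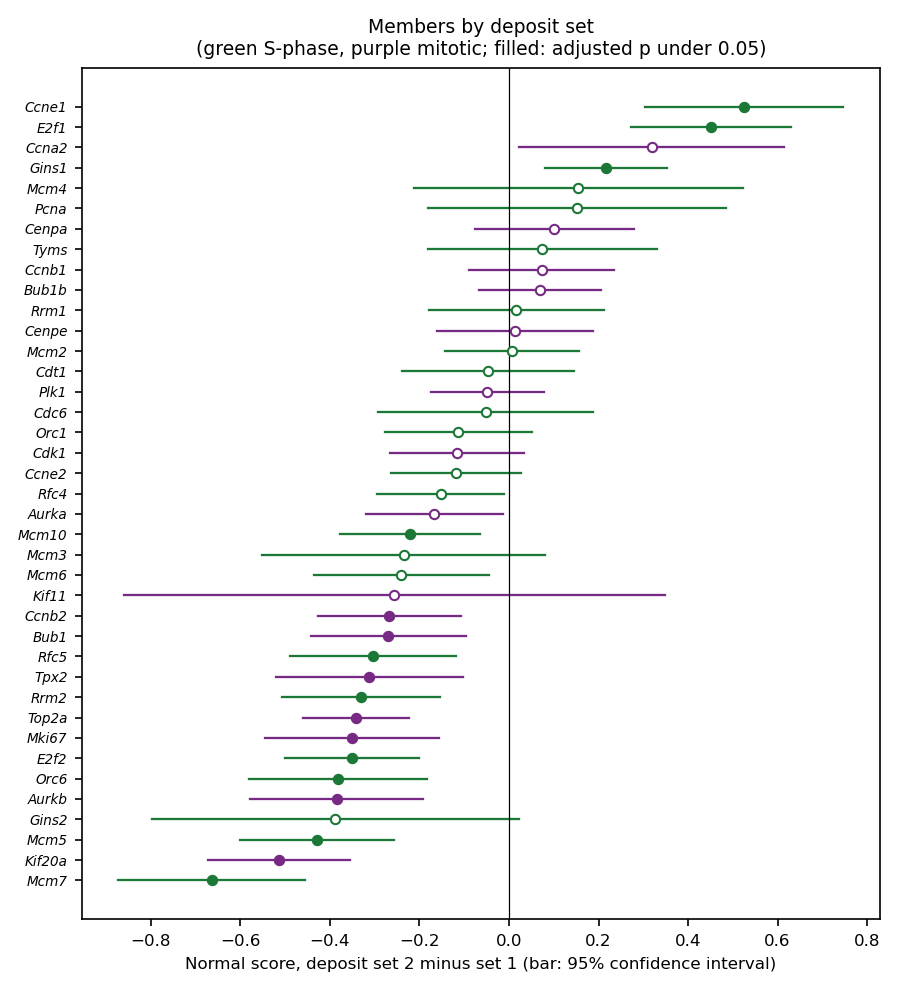
Difference in normal score between deposit set 2 and set 1 (horizontal axis) with its 95% confidence interval for each member, S-phase in green and mitotic in purple, with filled points for the 17 members at an adjusted p under 0.05. Mcm7 and Kif20a have the lowest values and Ccne1 and E2f1 the highest.

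Beyond the main promoter peaks, 19 further regions lay within 3 kb of an annotated start of a member, making 58 in all. Of the 58, 41 had a peak in all 16 libraries, and a library held between 44 and 50 of them (75.9% to 86.2%), against 50.2% to 65.1% of all promoter regions. Among the 19, 2 had a peak in every library, the region over the start of Mcm2 and one downstream of the start of Rrm2 (chr12:24710178-24710470), and 7 had a peak in 1 library. No region was gained or lost as 4 of 4 against 0 of 4 libraries in any genotype comparison. The shares over all 41791 promoter regions were 0.0885% gained and 0.0215% lost in P300KO_TET2KO against TET2KO. They were 0.0335% and 0.0144% in P300KO against WT, 0.0215% and 0.00479% in TET2KO against WT, and 0.0766% and 0.0215% in P300KO_TET2KO against P300KO. Near Mcm6, the region chr1:128357555-128357776 had a peak in 1 WT, 2 P300KO, 2 TET2KO and 3 P300KO_TET2KO libraries. The order was reversed at Cenpe, where the region chr3:135244541-135244810 had one in 3 WT, 2 P300KO, 2 TET2KO and 1 P300KO_TET2KO libraries. For each region, 6 of the 8 libraries were of set 2. A peak that is absent from a shorter list may have been below detection at that depth.

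Of 44 other replication genes and 53 other mitosis genes, 0 passed in any of the 4 genotype comparisons or the interaction. In P300KO_TET2KO against TET2KO, 3 of 44 and 3 of 53 were at an unadjusted p under 0.05, where 5.86% of all genes were, and their median differences were 0.0010 and −0.0044. Between deposit sets, 17 of 44 (38.6%) and 21 of 53 (39.6%) passed, where 33.4% of all genes did, and 15 and 16 of them were lower in set 2, where 18% of all genes were called lower. The replication genes higher in set 2 were Gins3 (0.26 ± 0.08) and Gins4 (0.95 ± 0.18), subunits of the same complex as Gins1 and Gins2. Those lower in set 2 with the smallest adjusted p were Chaf1a (−0.55 ± 0.06), which assembles chromatin behind the fork, and Fen1 (−0.45 ± 0.06), a flap nuclease. Mitosis genes higher in set 2 were Birc5 (0.62 ± 0.17), Ncapg (0.44 ± 0.11), Mybl2 (0.40 ± 0.12), Nuf2 (0.32 ± 0.09) and Smc2 (0.24 ± 0.08). Foxm1, a transcription factor of mitotic genes, was lower (−0.43 ± 0.06), as was Cdca5 (−0.42 ± 0.07). All of these passed the test.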

How the data were processed

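ATAC-seq of 4 genotypes was analysed from 16 peak lists. As the labels and the study's methods state, the authors trimmed reads with cutadapt 1.9.1, aligned them to mm10 with Bowtie2 2.2.6, removed duplicates, shifted reads for transposase insertion and called peaks in each library with MACS2 2.1.0. The deposited lists give each peak a fold enrichment and its −log10 p and −log10 q values, as the authors' caller wrote them. No list held a −log10 p below 2.00. Peak lists hold no counts, so no interval for depth is given.

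Peaks of all libraries were merged at 1 bp of overlap into 296215 regions. The main promoter region of a gene was, among regions within 3 kb of its GENCODE start sites, the one with the highest mean percentile over the 16 libraries. Its peak was ranked by −log10 p among the 12570 such regions present in every library, and ranks were turned into normal scores. These were fitted with limma 3.58.1 (R 4.3.3) with genotype and deposit set, with Benjamini-Hochberg adjustment over 14120 genes and a threshold of 0.05. Adjusted p-values in the text come from this fit unless another ranking, scale or left-out library is named beside them. All permutation tests were exact, 2-sided and over libraries within deposit sets. The labels do not say that libraries of a group came from separate mice, so p-values measure the spread between libraries. Scripts were tested on simulated data and run with Python 3.11.15, numpy 2.4.6, pandas 2.3.3, scipy 1.17.1 and matplotlib 3.10.9.

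The members and gene lists were chosen with earlier results of these data known. Values were given for members past the threshold (lowest, median and highest of the 8 libraries of a deposit set), the member with the smallest p between P300KO_TET2KO and TET2KO in each role, and the highest and lowest of each class. Alternatives were rank by fold enrichment, scores among all peaks, log2 ranks, other region choices, each deposit set alone, a replicate block, no set term and leaving out each library. Deviations of libraries with the same replicate number correlated at 0.165 to 0.492, and those of other numbers in the same set at 0.176 to 0.469, so that the numbers share only the set. No columns of samples were left unused (0). The sequence of 1 further promoter is not reported here.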

Additional observations from a re-analysis of the deposited data

Results flagged for a closer look

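In each genotype the 4 percentiles of a member were checked for a library that stood apart, by Dixon's criterion for 4 values. The class medians were checked likewise. Of 164 such groups of 4 values, 8 had a library that stood apart, and chance gives about 1 in 20. In Cdt1, WT replicate 1 was at 58.1 with the others between 73.7 and 76.4, and P300KO replicate 2 was at 89.6 with the others between 78.1 and 79.1. Mcm5 was at 89.2 in WT replicate 2, above 74.2 to 76.0 in the others. Gins2 was at 97.0 in P300KO replicate 3, below 99.8 to 99.9. Rfc4 was at 55.1 in TET2KO replicate 4, below 63.4 to 63.9, and Rrm1 was at 69.8 in P300KO_TET2KO replicate 2, below 76.8 to 77.6. Cdk1 was at 78.8 in TET2KO replicate 1, above 70.2 to 71.2, and Cenpa was at 79.2 in TET2KO replicate 2, below 85.4 to 86.4. The cause of these values was not tested.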

How the results depend on the processing

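No member was called in any of the 4 genotype comparisons under 27 alternatives each, or in the interaction under 26. The exact permutation test could not reach 0.05 there. With the replicate block, 0 members were called by genotype and 17 by deposit set, and no call changed. The numbers share only the set. Rank by fold enrichment turned the gap between S-phase and mitotic medians to −2.27 points among all peaks, from 1.29, and to −10.2 among promoters, from 9.69. With Ccna2 counted as S-phase the gap among all peaks was 1.64. Rank by fold moved the median difference of P300KO_TET2KO against TET2KO to −0.19 for S-phase and −0.11 for mitotic members (−0.065 for all genes). It moved that of P300KO against WT to 0.024 and 0.060 (−0.014 for all genes). For S-phase members in P300KO_TET2KO against P300KO it moved the median from −0.057 to −0.18 (−0.050 for all genes). For S-phase members the interaction moved from −0.059 to −0.17 by fold, −0.0060 with scores among all peaks and −0.022 with log2 ranks. Over all genes it was −0.0039 in the main fit, and −0.037, 0.036 and 0.0012 in these alternatives. Between deposit sets the medians were −0.12 for S-phase and −0.21 for mitotic members in the main fit (−0.013 for all genes). By fold they were −0.25 and −0.20 (−0.099 for all genes). Scores among all peaks gave 0.058 and 0.0015 (0.14 for all genes) and ended 12 of 17 set calls. TET2KO against WT in set 2 alone gave −0.057 and −0.024, and −0.026 for S-phase members with the region nearest to the start. By fold, signs turned for Gins1 (−0.00055) and Kif20a (−0.10) in P300KO_TET2KO against TET2KO, and for Mcm10 (0.018), Gins1 (−0.16) and Ccnb2 (0.36) between sets. Plk1 was at −0.011 in set 1 alone. The average p300 effect called 1 member by fold (0.715% of all genes) and 5 by unadjusted exact permutation (13.1%), and the average Tet2 effect 3 by the latter (11.4%). In region presence, 1 of 58 was lost in P300KO against WT in set 2 alone (0.866% of all promoter regions), 1 when 3 of 4 libraries against 1 of 4 sufficed (0.495%), and 1 was gained in P300KO_TET2KO against P300KO in set 1 alone (2.27%). Leaving out 1 library gave 0.012 (without WT replicate 1) to 0.13 (without WT replicate 4) for S-phase members in P300KO against WT, −0.030 to 0.053 for S-phase and −0.0079 to 0.066 for mitotic members in TET2KO against WT, −0.080 to 0.0057 for S-phase members in the interaction and −0.22 to −0.14 for mitotic members between sets. It gave 0 to 1 called members for the average Tet2 effect (the 1 without WT replicate 1, with 0.198% of all genes) and −0.072 to 0.0059 for Rfc4 in P300KO_TET2KO against TET2KO. The cause of these shifts was not tested. The study's methods give a minimum number of reads per sample, but the depth of each library is unknown. A region missing from a list may lie below its threshold.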
